A study of Mus musculus with 11 samples.

Results

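The 40 genes described here carry a cell through DNA replication and mitosis: 9 license origins, 6 start the replicative helicase, 8 work at the fork, 3 make deoxynucleotides and 14 act in mitosis or mark cycling cells. They were chosen by name for these roles and found by Ensembl identifier among the 52636 genes of the count files, and all 40 were matched in all 11 livers. RNA of single fetal livers at E15.5 was sequenced from 3 WT embryos, 2 labelled TNFR1KO (Tnfr1-/-), 3 labelled Casp8 MLKL dKO (Casp8-/- Mlkl-/-) and 3 labelled Casp8 TNFR1 dKO (Casp8-/- Tnfr1-/-). The embryos were untreated C57BL/6N mice with germline deletions, so every cell type of the liver carries the genotype. Casp8 encodes caspase-8, Mlkl the effector of necroptosis and Tnfrsf1a the TNF receptor TNFR1. The question put to the data was whether expression of the proliferation genes differed between the genotypes.

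Before a cell enters S phase, ORC, CDC6 and CDT1 load the MCM2 to MCM7 helicase onto origins. CDC45 and the GINS complex then join MCM2 to MCM7 to form the active helicase, and polymerases, the clamp PCNA and its loader RFC, FEN1 and LIG1 copy and seal the strands. CDK1 with cyclins A and B and the Aurora and Polo kinases drive mitosis, while the spindle checkpoint holds back anaphase until the chromosomes are attached. The E15.5 liver is a main site of blood formation, and its dividing erythroid precursors are known for strong expression of these genes. In a bulk sample, fewer dividing cells and less RNA per dividing cell cannot be told apart.

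Counts were high for all 40 members, though reads of some can come from overlapping genes. Their lowest count in any liver was 104 (Gins3 in Casp8-/- Tnfr1-/- replicate 3), library totals were 23129212 to 35819339 reads, and the median WT level of the members per kilobase of exon (CPM, the count scaled to the library's TMM-adjusted total, per kb) was 68.8, against 4.57 for the 17243 genes tested. The highest WT levels per kb were those of Mki67 (336), Rrm2 (317) and Ccna2 (226), and the lowest those of Pole (15.8), Gins2 (11.2) and Gins3 (8.1). Among neighbours in this order, Mcm2 (154 ± 8.46 CPM per kb, SD, n = 3) and Mcm3 (146 ± 8.77) did not differ beyond the spread of the WT livers.

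A pair of livers stood apart. Casp8-/- Mlkl-/- replicate 1 and Casp8-/- Tnfr1-/- replicate 3 had scaling factors (TMM) of 0.812 and 0.758, against 1.01 to 1.09 in the others, and the share of counts in the 10 top genes was 24.0% and 22.5%, against 11.7 to 15.2%. Casp8-/- Tnfr1-/- replicate 3 was also the single female liver by Xist and Y-linked counts. Of the targeted genes, Casp8 was at 33.6, 30.5 and 27.7 CPM in WT and 13.1, 11.5 and 21.9 CPM in Casp8-/- Tnfr1-/- livers, and at 7.82, 9.21 and 10.2 CPM in Casp8-/- Mlkl-/- livers. Mlkl was at 0.73, 1.22 and 1.03 CPM in the latter, against 4.46, 4.23 and 4.26 CPM in WT. Tnfrsf1a was at 52.8, 53.4 and 47.1 CPM in WT, 49.8 and 50.5 CPM in the livers labelled Tnfr1-/- and 76.9, 76 and 425 CPM in those labelled Casp8-/- Tnfr1-/-. Casp8 in Casp8-/- Tnfr1-/- replicate 3, at 21.9 CPM, lay nearer to the lowest WT value than to any other liver labelled Casp8-/-. Counts over a whole gene include reads outside a deleted part, and the Tnfr1 labels could not be checked from them. These genotypes are therefore given below as the labels state them.

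The control regions of members are shown because replication and mitosis genes are known to carry different promoter elements. Any link between these elements and the member values was not tested. RefSeq promoters (GRCm38.p6, 250 bases before to 50 after the start) were found for 33 of the 40 members and 27025 genes. The words searched, on both strands, were CCAAT, the site of the factor NF-Y; TTTGAA, the cell cycle homology element of genes expressed late in the cycle; and the E2F-type words GCGCGAAA, GGCGGGAA and GGCGCGAA, of which GGCGCGAA and GCGCGAAA overlap in 7 bases where they occur as GGCGCGAAA. The 4 promoters printed here, 2 of replication and 2 of mitosis genes, were chosen after their matches were seen. They run from 150 bases before to 30 after the start, and capitals mark these words in either orientation.
Orc1: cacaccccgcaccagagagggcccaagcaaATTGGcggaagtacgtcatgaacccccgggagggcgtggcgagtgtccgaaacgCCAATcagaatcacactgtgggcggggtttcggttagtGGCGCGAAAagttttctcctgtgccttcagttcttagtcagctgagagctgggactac
Mcm6: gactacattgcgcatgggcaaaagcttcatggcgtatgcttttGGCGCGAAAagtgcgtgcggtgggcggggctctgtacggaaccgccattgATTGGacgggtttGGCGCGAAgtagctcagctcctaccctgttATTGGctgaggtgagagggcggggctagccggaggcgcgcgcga
Ccnb2: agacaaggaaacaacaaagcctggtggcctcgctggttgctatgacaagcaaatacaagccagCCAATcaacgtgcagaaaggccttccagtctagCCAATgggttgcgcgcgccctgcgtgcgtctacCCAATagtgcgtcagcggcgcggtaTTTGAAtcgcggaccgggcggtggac
Kif11: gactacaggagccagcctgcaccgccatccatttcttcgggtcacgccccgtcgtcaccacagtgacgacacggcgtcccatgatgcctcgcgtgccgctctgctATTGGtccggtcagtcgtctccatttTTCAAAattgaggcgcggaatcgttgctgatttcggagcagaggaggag
They lie at chr4:108579304-108579483 (+ strand), chr1:128359676-128359855 (- strand), chr9:70421525-70421704 (- strand) and chr19:37376232-37376411 (+ strand), each at the RefSeq start of its own gene. Orc1 and Mcm6 held E2F-type words and CCAAT but no TTTGAA, and Ccnb2 and Kif11 held CCAAT and TTTGAA but no E2F-type word. Over whole promoters, an E2F-type word stood in 10 of 21 replication genes and 1 of 12 mitosis genes, against 3.29% of the 27025 genes. A gene was counted if any of its promoters held the word. TTTGAA stood in 4 of 21 replication and 9 of 12 mitosis genes, against 20.2% of all these genes, and CCAAT in 14 of 21 and 11 of 12, against 41.1%. These matches describe the letters in the window and say nothing of binding.

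Member levels were lower in the livers labelled Casp8-/- Tnfr1-/- than in WT, but no member passed the test with all 11 livers in the fit. Relative to the mean of the 3 WT livers, the median of the 40 members was 77.9%, 77.2% and 36.5% in Casp8-/- Tnfr1-/- replicates 1 to 3. It was 57.6%, 94.9% and 89.2% in Casp8-/- Mlkl-/- replicates 1 to 3, and 90.1% and 87.4% in the livers labelled Tnfr1-/-. The WT livers themselves lay within 98.6 to 102% on this measure. A WT liver had the highest value of all 11 for 32 members, and Casp8-/- Tnfr1-/- replicate 3 the lowest for 33, with Casp8-/- Mlkl-/- replicate 1 lowest for the other 7.

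**Figure D1:**
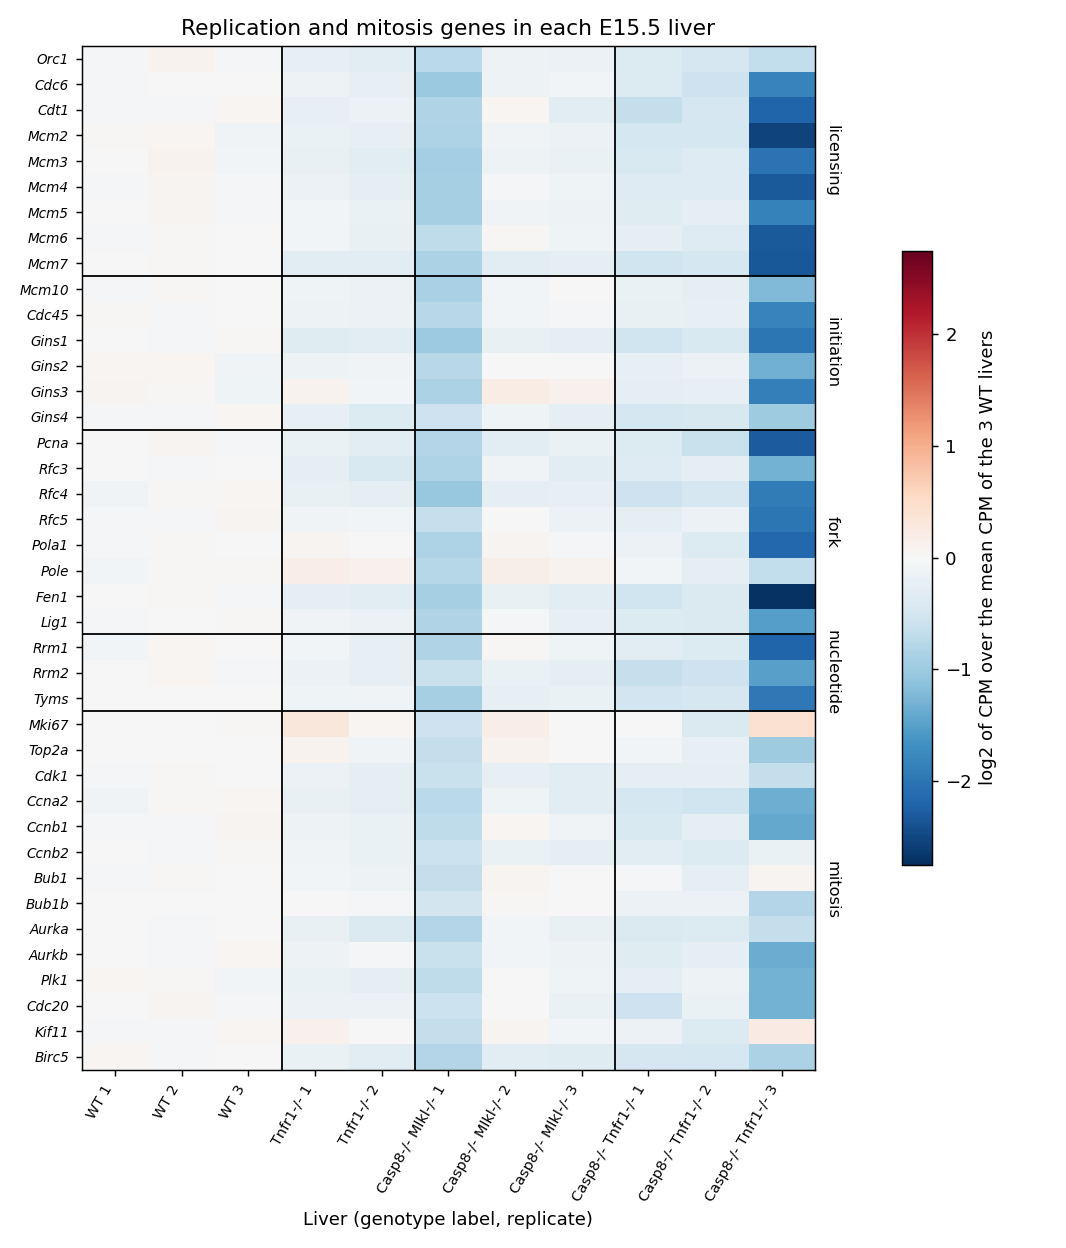
Heat map of the 40 members (lines, grouped by role) in the 11 livers (columns, by genotype label and replicate); the colour is log2 of the CPM over the mean CPM of the 3 WT livers, blue for lower and red for higher. Casp8-/- Mlkl-/- replicate 1 is evenly lower over all roles, with a median of 57.6% of WT, and Casp8-/- Tnfr1-/- replicate 3 is lowest for 33 members but highest for Mki67 and Kif11.

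In the edgeR fit of Casp8-/- Tnfr1-/- against WT, 0 of 40 members were called at an adjusted p under 0.05, where 5.8% of all 17243 genes were (121 lower and 879 higher). Log2 fold changes were negative for 39 of 40 members, with a median of -0.61, where 50.1% of all genes were negative and their median was -0.0015. An unadjusted p under 0.05 was found for 16 members, against 24.6% of all genes in either direction, and the smallest adjusted p among the members was 0.0691 (Rrm2). DESeq2's Wald test called 5 members lower (Birc5, Rrm2, Ccna2, Orc1 and Gins4), with adjusted p from 0.00711 to 0.0477, where 3.48% of genes were called lower. The values themselves did not overlap for 36 members: each of the 3 Casp8-/- Tnfr1-/- livers lay below each of the 3 WT livers, where 18.9% of all genes showed this. The exceptions were Pole, Mki67, Bub1 and Kif11. Limma-voom without quality weights called 0 members here, and neither it nor DESeq2 called any in the other 4 comparisons.

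Licensing genes were at a median of 76.6%, 72.5% and 21.9% of WT in Casp8-/- Tnfr1-/- replicates 1 to 3, and none of the 9 passed the test (median log2 fold change -0.77). Mcm2, a helicase subunit, stood at 529.6, 543 and 488 CPM in the WT livers, 461 and 447 CPM in the livers labelled Tnfr1-/-, 287, 489 and 463 CPM in those labelled Casp8-/- Mlkl-/- and 369, 374 and 88.9 CPM in those labelled Casp8-/- Tnfr1-/-. The 3 Casp8-/- Tnfr1-/- livers were below all WT and Tnfr1-/- livers, and replicate 3 was far below the other 2. The edgeR log2 fold change over WT was -0.91 ± 0.44 (SE; adjusted p 0.233). Mcm3, another subunit, showed 440.4, 472 and 419 CPM in the WT livers, 384 and 362 CPM in the livers labelled Tnfr1-/-, 232, 404 and 388 CPM in those labelled Casp8-/- Mlkl-/- and 332, 348 and 109 CPM in those labelled Casp8-/- Tnfr1-/-. Again the 3 Casp8-/- Tnfr1-/- livers lay below all WT and Tnfr1-/- livers, with a log2 fold change of -0.75 ± 0.38 and an edgeR adjusted p of 0.246. Cdt1, the loader of the helicase, had the most negative estimate of any member with all livers in the fit, at 172, 172 and 182 CPM in the WT livers, 149.7 and 156 CPM in the livers labelled Tnfr1-/-, 99.4, 181 and 143 CPM in those labelled Casp8-/- Mlkl-/- and 111, 127 and 38.4 CPM in those labelled Casp8-/- Tnfr1-/-. Here too replicate 3 was the lowest liver and Casp8-/- Mlkl-/- replicate 1 the next, and the log2 fold change was -0.93 ± 0.37 (edgeR adjusted p 0.166). Orc1, a subunit of the origin recognition complex, had the estimate nearest to 0 in this role with all livers in the fit, at 60.1, 66 and 59.1 CPM in the WT livers, 53 and 49.9 CPM in the livers labelled Tnfr1-/-, 37.1, 55.8 and 55.2 CPM in those labelled Casp8-/- Mlkl-/- and 47.5, 44.7 and 38.6 CPM in those labelled Casp8-/- Tnfr1-/-. Casp8-/- Mlkl-/- replicate 1 and Casp8-/- Tnfr1-/- replicate 3 were nearly level for Orc1, and the log2 fold change was -0.50 ± 0.17 (edgeR adjusted p 0.113). The remaining members, Cdc6 and Mcm4 to Mcm7, had log2 fold changes from -0.91 (Mcm7) to -0.66 (Mcm5). Without replicate 3 of Casp8-/- Tnfr1-/- the values were -0.55 for Cdt1, -0.51 for Mcm7, -0.48 for Mcm2, -0.41 for Orc1, -0.38 for Mcm3 and -0.30 for Mcm5 and Mcm6, so neither the place of Orc1 nor the lead of Cdt1 over Rrm2 (-0.59) held.

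Genes that start the helicase were at 85.2%, 85.1% and 33.4% of WT in the same 3 livers, with 0 of 6 past the test. Gins4, a GINS subunit, stood at 55.2, 55.7 and 59.2 CPM in the WT livers, 48.3 and 43.5 CPM in the livers labelled Tnfr1-/-, 38.2, 52.4 and 48.1 CPM in those labelled Casp8-/- Mlkl-/- and 40.5, 41.8 and 28.9 CPM in those labelled Casp8-/- Tnfr1-/-. Its 3 Casp8-/- Tnfr1-/- values were below all WT and Tnfr1-/- values, with a log2 fold change of -0.61 ± 0.17 (edgeR adjusted p 0.0699). Gins1, its partner, was at 44.6, 43.4 and 45.8 CPM in the WT livers, 35.2 and 36.4 CPM in the livers labelled Tnfr1-/-, 22.5, 38.5 and 36.8 CPM in those labelled Casp8-/- Mlkl-/- and 30.7, 33.2 and 11.2 CPM in those labelled Casp8-/- Tnfr1-/-. The log2 fold change of Gins1 was -0.83 ± 0.35 (edgeR adjusted p 0.181), the most negative of the role. Mcm10, which helps to activate the loaded helicase, had 116, 122 and 121 CPM in the WT livers, 111 and 108 CPM in the livers labelled Tnfr1-/-, 64.9, 113 and 121 CPM in those labelled Casp8-/- Mlkl-/- and 106, 101 and 51.9 CPM in those labelled Casp8-/- Tnfr1-/-. Casp8-/- Tnfr1-/- replicates 1 and 2 lay just below the lower Tnfr1-/- liver, and the log2 fold change was -0.48 ± 0.29 (edgeR adjusted p 0.32). Without replicate 3 the values were -0.47 for Gins1, -0.45 for Gins4 and -0.21 for Mcm10.

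Fork genes were at 77.5%, 76.4% and 25.7% of WT, with 0 of 8 past the test. Fen1, the nuclease that trims Okazaki fragments, stood at 265, 273 and 259 CPM in the WT livers, 221 and 216 CPM in the livers labelled Tnfr1-/-, 141, 232 and 219 CPM in those labelled Casp8-/- Mlkl-/- and 181, 202 and 40.4 CPM in those labelled Casp8-/- Tnfr1-/-. It had the lowest value of any member in replicate 3 relative to WT, 15.2%, and a log2 fold change of -0.91 ± 0.46 (edgeR adjusted p 0.248). Most of the Fen1 transcript overlaps other genes on the opposite strand, and use of strand in counting is not given in the sources used here, so its level is uncertain. In all, 13 members shared over 5% of their 50-base stretches with other genes, up to 76.7% for Fen1, 65.4% for Gins2, 23.4% for Ccnb1, 23.3% for Mcm7 and 19.1% for Pcna. Lig1, the ligase that seals the fragments, had 323, 332 and 337 CPM in the WT livers, 308 and 294 CPM in the livers labelled Tnfr1-/-, 186, 319.8 and 281 CPM in those labelled Casp8-/- Mlkl-/- and 255, 252 and 116 CPM in those labelled Casp8-/- Tnfr1-/-. Its log2 fold change was -0.67 ± 0.29 (edgeR adjusted p 0.192). Pole, the catalytic subunit of the leading strand polymerase, was the exception in the role, at 110.4, 120.1 and 121 CPM in the WT livers, 132 and 127 CPM in the livers labelled Tnfr1-/-, 67.7, 130.3 and 125 CPM in those labelled Casp8-/- Mlkl-/- and 112, 99.2 and 73.1 CPM in those labelled Casp8-/- Tnfr1-/-. Replicate 1 of Casp8-/- Tnfr1-/- lay within the WT range for Pole, and the Tnfr1-/- livers lay above it, with a log2 fold change over WT of -0.30 ± 0.24 (edgeR adjusted p 0.441). Without replicate 3 the values were -0.47 for Fen1, -0.38 for Lig1 and -0.14 for Pole.

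The 3 genes of nucleotide supply were at 69.7%, 72.6% and 25.7% of WT, with 0 of 3 past the test. Rrm2, the S phase subunit of ribonucleotide reductase, stood at 691, 719 and 678 CPM in the WT livers, 620.5 and 594 CPM in the livers labelled Tnfr1-/-, 452, 614 and 586 CPM in those labelled Casp8-/- Mlkl-/- and 450.0, 469 and 247 CPM in those labelled Casp8-/- Tnfr1-/-. Group means were 696 ± 20.7 CPM in WT (SD, n = 3) and 389 ± 123 CPM in Casp8-/- Tnfr1-/- (SD, n = 3), a log2 fold change of -0.84 ± 0.24 (edgeR adjusted p 0.0691). Casp8-/- Tnfr1-/- replicate 1 and Casp8-/- Mlkl-/- replicate 1 were level for Rrm2. Rrm1, the large subunit, had 705, 781 and 756 CPM in the WT livers, 706 and 638 CPM in the livers labelled Tnfr1-/-, 423, 762 and 691 CPM in those labelled Casp8-/- Mlkl-/- and 601, 574 and 162 CPM in those labelled Casp8-/- Tnfr1-/-. Its log2 fold change was -0.75 ± 0.42 (edgeR adjusted p 0.287), and that of Tyms, which makes thymidylate, was -0.83 ± 0.34 (edgeR adjusted p 0.168). Without replicate 3 the values were -0.59 for Rrm2, -0.34 for Rrm1 and -0.48 for Tyms.

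Mitosis genes were at 82%, 83.3% and 56%, with 0 of 14 past the test and a median log2 fold change of -0.42, against -0.73 for the 26 replication genes (-0.26 against -0.37 with both livers of low TMM factor left out; the difference between these roles was not tested). Ccna2, cyclin A2, which acts in both S phase and mitosis, stood at 770.3, 831 and 854 CPM in the WT livers, 714 and 685 CPM in the livers labelled Tnfr1-/-, 489, 757 and 657 CPM in those labelled Casp8-/- Mlkl-/- and 584, 558 and 323 CPM in those labelled Casp8-/- Tnfr1-/-. All 3 Casp8-/- Tnfr1-/- livers were below all WT and Tnfr1-/- livers, and the log2 fold change was -0.74 ± 0.24 (edgeR adjusted p 0.101). Mki67, the Ki-67 proliferation antigen, had 3329.9, 3368 and 3428 CPM in the WT livers, 4180.2 and 3527 CPM in the livers labelled Tnfr1-/-, 2267, 3816 and 3407 CPM in those labelled Casp8-/- Mlkl-/- and 3357, 2571 and 4521 CPM in those labelled Casp8-/- Tnfr1-/-. The genotypes overlapped for Mki67, replicate 3 of Casp8-/- Tnfr1-/- was the highest liver, and the log2 fold change was 0.05 ± 0.27 (edgeR adjusted p 0.925). It was -0.18 without that liver, where Ccna2 was at -0.51.

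The lower values of Casp8-/- Tnfr1-/- replicate 3 were uneven over the members. In this liver the 26 replication genes were at 15.2 to 62.6% of WT (median 26.1%) and the 14 mitosis genes at 37.6 to 134% (median 56%). Besides Mki67, 3 mitosis genes named after their values were seen were near or above WT there. Kif11, the motor that separates spindle poles, was at 351, 346 and 372 CPM in the WT livers, 384 and 352 CPM in the livers labelled Tnfr1-/-, 225, 374 and 337 CPM in those labelled Casp8-/- Mlkl-/- and 319.8, 273 and 414 CPM in those labelled Casp8-/- Tnfr1-/-. Bub1, a spindle checkpoint kinase, was at 139 CPM in replicate 3 against 128, 137 and 135 CPM in WT, and cyclin B2 (Ccnb2) at 193 against 219, 215 and 227 CPM. Aurkb, Plk1, Cdc20 and Ccnb1 in the same liver were at 39, 40.5, 40.6 and 37.6% of WT. In Casp8-/- Mlkl-/- replicate 1, by contrast, replication genes were at a median of 55.4% and mitosis genes at 63.5%, and the 40 members spanned only 48.7 to 70.3%. Each of these patterns rests on 1 liver and has no replicate.

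**Figure D2:**
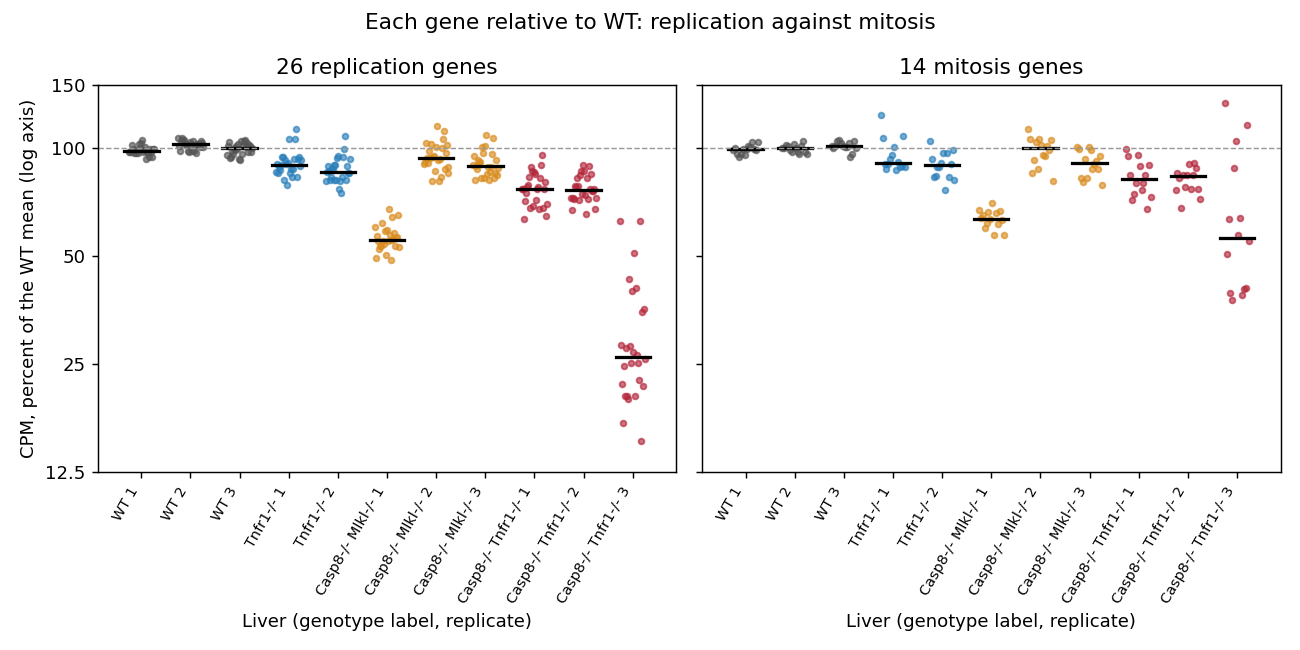
CPM of each member as a percent of its mean in the 3 WT livers (log axis) for the 26 replication genes (left) and the 14 mitosis genes (right) in the 11 livers; points are genes and black bars medians. In Casp8-/- Tnfr1-/- replicate 3 the median of replication genes is 26.1% and that of mitosis genes 56%, and in replicates 1 and 2 they are 77% and 76.4% against 82% and 83.3%.

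Marker sums of the cell types in these livers also differed between livers. The 12 erythroid markers summed to 17706, 17708 and 17485 CPM in WT, 18349 and 16932 in Tnfr1-/-, 12579.9, 16625 and 14782 in Casp8-/- Mlkl-/- and 13585, 12234 and 21011 in Casp8-/- Tnfr1-/- livers. The lowest sums were those of Casp8-/- Tnfr1-/- replicates 2 and 1 and Casp8-/- Mlkl-/- replicate 1, which were also low for the members, while Casp8-/- Tnfr1-/- replicate 3 had the highest sum. That sum stood for only part of the list: in replicate 3, markers such as Alas2 were the highest and 4 of the 12 (Gata1, Klf1, Epor and Tal1) the lowest of all 11 livers. Alas2, the first enzyme of heme synthesis in red cells, was at 5730.0 CPM there against 2075 to 2198 CPM in WT, and Gata1, a master regulator of erythroid cells, at 96.5 CPM against 285 to 296 CPM. The 10 hepatocyte markers summed to 211764 CPM in Casp8-/- Mlkl-/- replicate 1, where 9 of 10 were at their highest, to 102479 CPM in Casp8-/- Tnfr1-/- replicate 3, and to 52600 to 77789 CPM in the other 9. The list was split in Casp8-/- Tnfr1-/- replicate 3, where 1 marker (Fgb) was the highest and 2 (Hnf4a and Apob) the lowest of all 11 livers. Hnf4a was at 121 CPM there against 207 to 215 CPM in WT, and Apob at 802 CPM against 1636 to 1871 CPM. The 12 neutrophil markers summed to 1212 to 1765 CPM in WT to 3768 CPM in Casp8-/- Mlkl-/- replicate 1 and to 6509, 7902 and 18238 CPM in Casp8-/- Tnfr1-/- livers. In replicate 3 of the latter 6 of these markers were the highest of all 11 livers and 4, the granule proteases Elane, Prtn3 and Ctsg and the peroxidase Mpo, the lowest, with Mpo at 53.4 CPM against 336 to 484 CPM in WT. The 12 striated muscle markers summed to 1917 CPM in that liver and to 22.5 to 50.1 CPM elsewhere, with all 12 highest in that liver. The 12 macrophage markers summed to 1655 CPM in Casp8-/- Mlkl-/- replicate 1 and 317 CPM in Casp8-/- Tnfr1-/- replicate 3, against 463 to 730.3 CPM elsewhere, and 10 endothelial markers to 664 and 889.6 CPM in these livers, against 426 to 529.6 CPM. Of the macrophage markers, 8 were the lowest of all livers in Casp8-/- Tnfr1-/- replicate 3 and 1, Cd68, the highest. Of the 10 endothelial markers, 6 were the highest of all livers there and 1, Tek, the lowest, with Stab2 at 249 CPM against 96.7 to 112 CPM in WT. No erythroid or hepatocyte marker was at 0 in any liver. The part of these cell types in the member values was not tested.

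**Figure D3:**
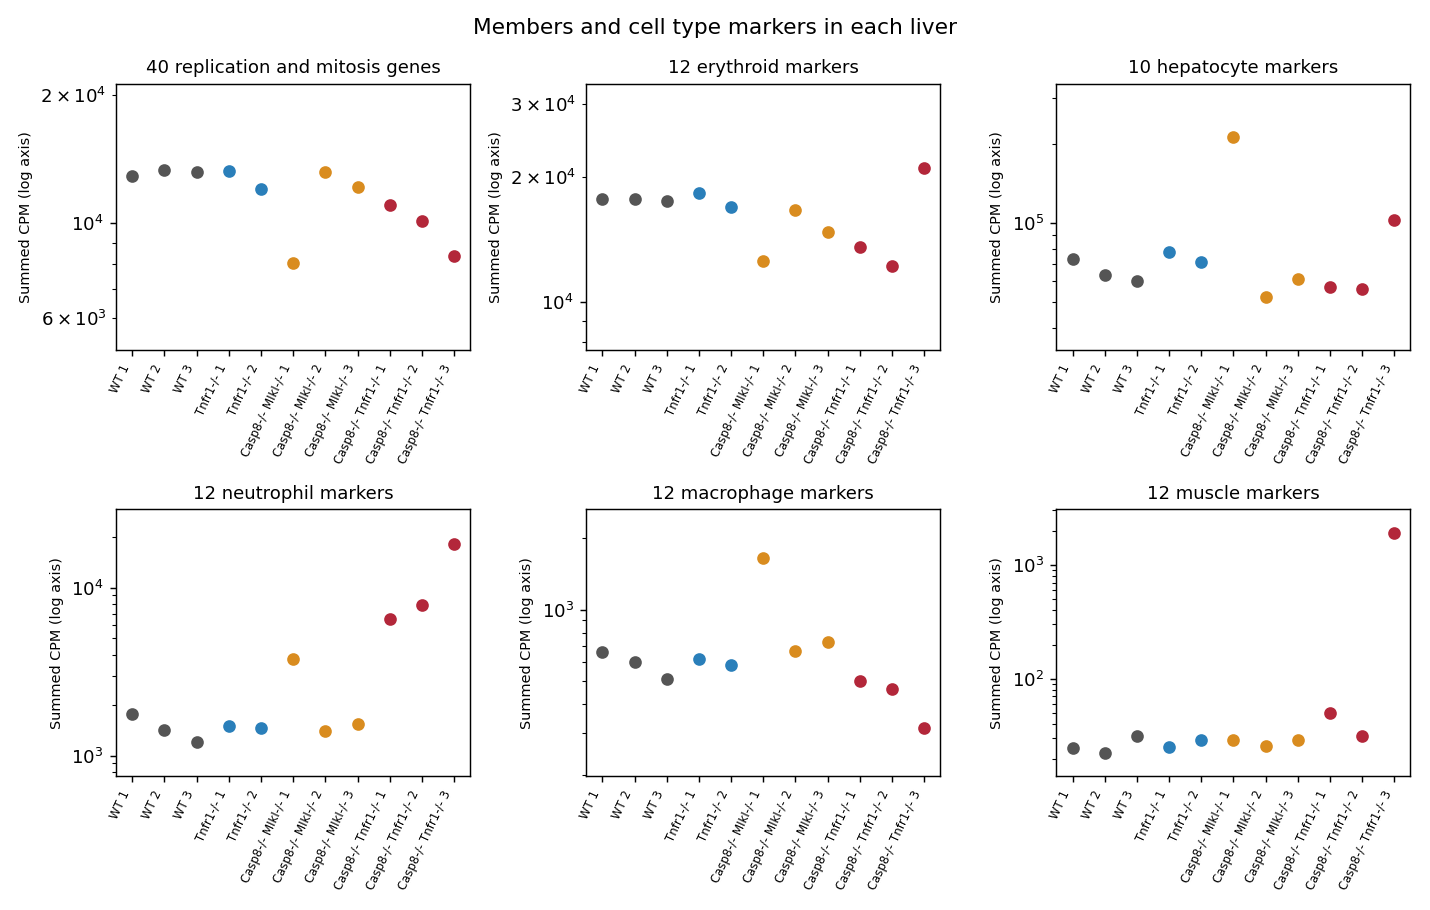
Summed CPM (log axes) of the 40 members and of 5 marker lists in each of the 11 livers, coloured by genotype label. Casp8-/- Mlkl-/- replicate 1 joins a low member sum to the highest hepatocyte and macrophage sums. Casp8-/- Tnfr1-/- replicate 3 joins a low member sum to the highest erythroid, neutrophil and muscle sums, although 4 of 12 erythroid and 4 of 12 neutrophil markers were the lowest of all livers there. Mki67 made up 4521 of the 8390 CPM of the member sum in this liver and was above its WT values of 3330 to 3428 CPM.

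With the pair of livers whose TMM factor was under 0.9 left out, a choice made after their values were seen, the median difference of the members was smaller and far more of them passed the test. Those livers were also the lowest for the members, so their removal is not independent of the member values, and 2 livers stood against 3. In this edgeR fit 32 of 40 members were called lower than in WT and 0 higher, where 13.5% of 16958 genes were called lower, with a median log2 fold change of -0.33. All 9 licensing genes fell, 4 of 6 initiation genes, 7 of 8 fork genes, all 3 nucleotide genes and 9 of 14 mitosis genes. In the same fit all 12 erythroid markers were called lower, with a median of -0.42, and all 12 neutrophil markers higher, with a median of 2.20 (17.8% of genes were called higher). Rrm2 fell by 0.58 on the log2 scale (edgeR adjusted p 1.19e-05), Cdt1 by 0.54 (0.00045), Ccna2 by 0.50 (0.00021), Mcm7 by 0.50 (1.80e-05) and Mcm2 by 0.47 (0.000116). Gins2, Gins3, Pole, Mki67, Top2a, Bub1, Bub1b and Plk1 did not pass the test, with values from -0.21 (Gins3; edgeR adjusted p 0.107) to -0.13 (Pole; 0.177). Kif11 fell by 0.25 (0.0304). Leaving out Casp8-/- Tnfr1-/- replicate 3 alone gave a median of -0.34 with 1 member, Rrm2, called lower (2.55% of genes), and leaving out Casp8-/- Mlkl-/- replicate 1 alone gave 4 (Orc1, Gins4, Aurka and Birc5) called lower (2.15% of genes). With all livers kept but weighted by quality, also a choice made after the data were seen, limma-voom called 27 members lower than in WT, where 13.6% of genes were. It called 13 lower than in the livers labelled Tnfr1-/- (10.5% of genes) and 3, Cdc6, Cdt1 and Rrm2, lower than in Casp8-/- Mlkl-/- livers (4.73%). In Casp8-/- Mlkl-/- livers 3, Cdk1, Ccnb2 and Birc5, were called lower than in WT (2.85%), and in Tnfr1-/- livers 0 were (0.702%).

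**Figure D4:**
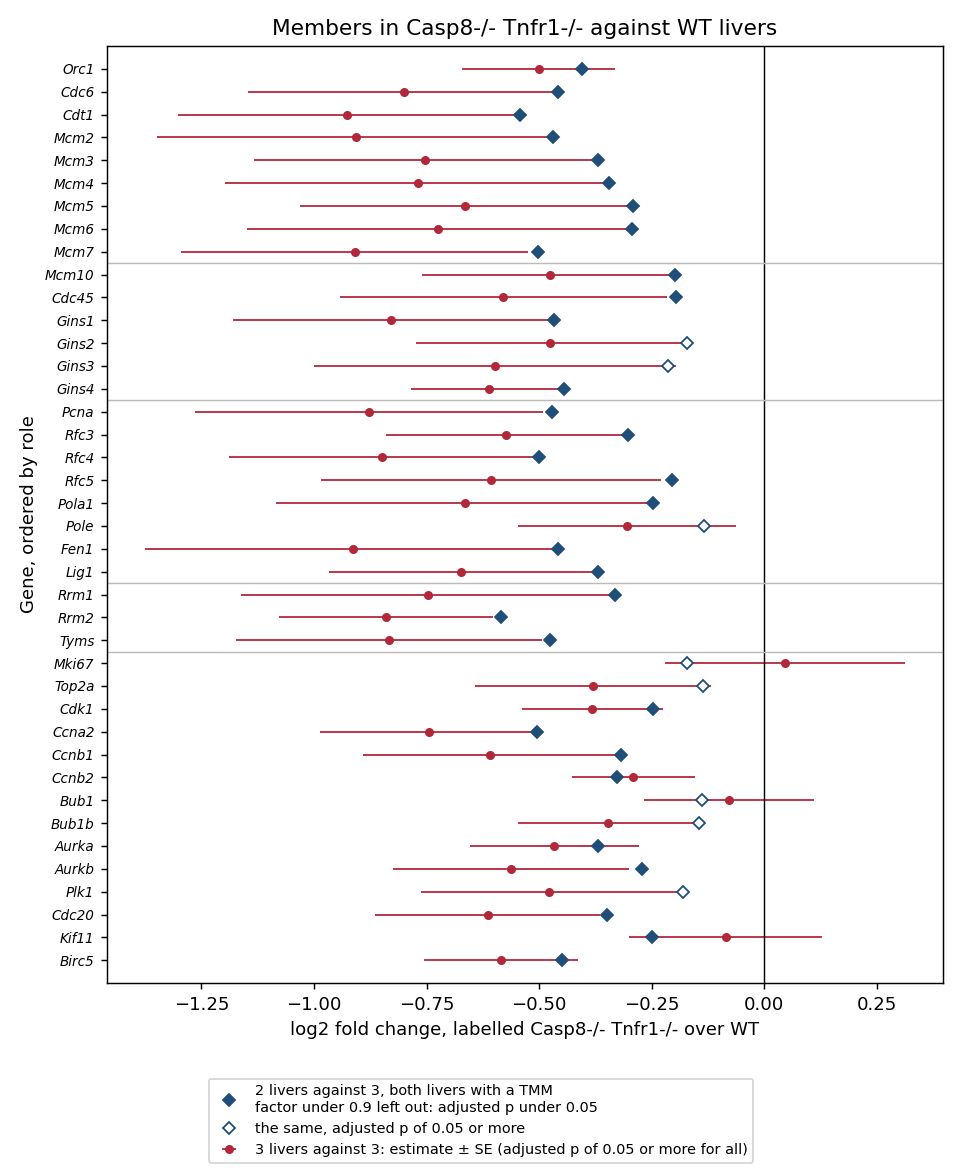
Log2 fold change of each member in the livers labelled Casp8-/- Tnfr1-/- over WT; red points with bars are the estimate ± SE with 3 livers a group, and diamonds the estimate with both livers of low TMM factor left out (2 against 3), filled where the adjusted p was under 0.05. Nearly all red points lie below 0 with no call, and the diamonds, mostly nearer to 0 (not for Mki67, Ccnb2, Bub1 and Kif11), are filled for 32 of 40 members.

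Against the livers labelled Tnfr1-/-, 0 of 40 members were called, where 2.17% of all genes were, and the median log2 fold change was -0.49 with 39 of 40 negative. Only Rrm2 had an unadjusted p under 0.05, against 16.3% of all genes, and its log2 fold change was -0.64 ± 0.26 (edgeR adjusted p 0.26). The 3 Casp8-/- Tnfr1-/- livers were below both Tnfr1-/- livers for 32 members, where 20.6% of genes were. Rfc3, Mki67, Top2a, Cdk1, Bub1, Aurka, Plk1 and Kif11 were the exceptions. With the pair of livers left out, 14 members fell (9.3% of all genes were called lower), among them Rrm2 by 0.39 (edgeR adjusted p 0.0011) and Tyms by 0.37 (0.000992), and the median was -0.18.

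Against Casp8-/- Mlkl-/- livers, which lack the same caspase, 0 of 40 members were called, where 1.65% of all genes were, and none had an unadjusted p under 0.05, against 15.3% of genes. The median log2 fold change was -0.35, with 36 of 40 negative, and for no member did all 3 Casp8-/- Tnfr1-/- livers lie below all 3 Casp8-/- Mlkl-/- livers, where 6.15% of genes did. This comparison turned on 1 liver a side: the median was -0.05 without Casp8-/- Tnfr1-/- replicate 3 and -0.52 without Casp8-/- Mlkl-/- replicate 1. With both left out, 20 members fell in Casp8-/- Tnfr1-/- livers, where 6.1% of genes did, with a median of -0.24 (2 livers against 2). They were 7 licensing, 2 initiation, 5 fork, 3 nucleotide and 3 mitosis genes. Rrm2, with the smallest p, fell by 0.37 (edgeR adjusted p 0.00194), and Cdt1 fell by 0.43 (0.00747).

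Casp8-/- Mlkl-/- livers and livers labelled Tnfr1-/- were also compared with WT. For Casp8-/- Mlkl-/- 0 of 40 members were called (0.0058% of genes were, 1 gene), all 40 log2 fold changes were negative with a median of -0.31, and 3 (Birc5, Cdk1 and Ccnb2) had an unadjusted p under 0.05, against 5.63% of genes. For 21 members the 3 livers lay below all WT livers, where 11.1% of genes did. Without replicate 1 the median was -0.11, and with both livers left out 4 members fell (Birc5, Mcm7, Cdk1 and Ccnb2), where 3.18% of genes were lower; Birc5, survivin of the chromosomal passenger complex, fell by 0.32 (edgeR adjusted p 0.0117). For Tnfr1-/- 0 of 40 were called, where 0% of all genes were, and 0 had an unadjusted p under 0.05, against 1.08% of genes. Even so both Tnfr1-/- livers lay below all 3 WT livers for 30 of 40 members, where 18.4% of all genes did, with a median log2 fold change of -0.16. Fitted with WT alone, 3 members (Mcm7, Rfc3 and Fen1) were called lower, where 0.745% of genes were, and with both livers of low TMM factor left out 1 was, Mcm7, which fell by 0.29 (edgeR adjusted p 0.0445), where 0.33% of genes were called lower. These comparisons share the WT livers with that of Casp8-/- Tnfr1-/- and are not independent of it.

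Taking the 8 livers of the other genotypes as a group, the exact two-sided permutation test over 165 arrangements (smallest possible p 0.00606) gave p under 0.05 for 12 of 40 members (30.0%), where 27.3% of all genes reached this. The smallest p was that of Rrm2 (0.0121, exact permutation), followed by Cdt1 (0.0182) and by Ccna2 and Gins4 (both 0.0242), and the largest that of Mki67 (0.952). For no member did all 3 Casp8-/- Tnfr1-/- livers lie below all 8 others, where 3.32% of genes did. Among the 9 livers without that pair, Casp8-/- Tnfr1-/- replicates 1 and 2 were the lowest for 30 of 40 members, where 13.4% of genes showed this.

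Other genes of the same pathways, listed by function, also had negative medians. Of 40 further replication genes, 0 were called against WT, all 40 log2 fold changes were negative and the median was -0.64; the most negative was Tk1, thymidine kinase, at 102 ± 9.42 CPM in WT and 50.6 ± 26.7 CPM in Casp8-/- Tnfr1-/- livers (SD, n = 3; edgeR adjusted p 0.122). Of 39 further mitosis genes tested, 1 was called lower, the median was -0.31 and 34 were negative. The called gene was Spc25, a kinetochore protein, at 110.5, 116 and 116 CPM in the WT livers, 97.2 and 91.6 CPM in the livers labelled Tnfr1-/-, 68.1, 97 and 89.2 CPM in those labelled Casp8-/- Mlkl-/- and 78.1, 76.9 and 55.7 CPM in those labelled Casp8-/- Tnfr1-/-. It fell by 0.70 on the log2 scale (edgeR adjusted p 0.0434). That call was lost in 8 of 11 fits that left out 1 liver, with adjusted p from 0.0182 to 0.168, and without a filter on low counts (0.0659), with a replicate block (0.0883) and with only both genotypes in the fit (0.0871). The call held with DESeq2's Wald test (adjusted p 0.00206) and with limma-voom (0.0474). It also held with the alternatives chosen after the data were seen: limma-voom with quality weights (3.91e-05) and edgeR without both livers of low TMM factor (2.15e-05). Every Casp8-/- Tnfr1-/- liver was below every WT and Tnfr1-/- liver for Spc25, and Casp8-/- Mlkl-/- replicate 1 was below 2 of the Casp8-/- Tnfr1-/- livers. In the other 4 comparisons 0 genes of either list were called by edgeR. With the pair of livers left out, 32 of 40 replication and 26 of 39 mitosis genes were called lower than in WT, where 13.5% of all genes were, and 1 mitosis gene, Pttg1, was called higher.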

How the data were processed

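RNA was prepared from single fetal livers and sequenced as single-end 50 base reads. Per the labels, libraries were made with a TruSeq RNA v2 kit and run on a HiSeq4000, while the study's methods name a stranded kit and another instrument. Per the submitters' processing notes, reads were aligned with GSNAP to GRCm38 (mm10). The authors kept uniquely mapped reads and tested with limma. The counter, its annotation and its use of strand are not given in the sources used here. The deposited values used are raw counts per gene, and the gene width that the authors deposited beside them in bases. The RPKM values deposited in the same files by the authors were not used.

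Genes were named from GENCODE M21, and the promoters are from RefSeq. Low genes were removed with filterByExpr (minimum count 10, leaving 17243 genes), and counts were scaled by TMM and fitted over all 4 genotypes by edgeR 4.0.16 (glmQLFit and glmQLFTest), with Benjamini-Hochberg adjustment over all genes and a threshold of 0.05. CPM values use the TMM-scaled totals, and log2 CPM a prior count of 2. DESeq2 1.42.0 and limma-voom (limma 3.58.1) were alternatives, in R 4.3.3. The edgeR step was tested on simulated data. Chi-square statistics showed no 2 livers to be the same library. Totals were 23129212 to 35819339 counts per library. Reads carry no molecular identifiers, so these totals do not give the number of separate molecules counted. No label gives litter or preparation batch. The members and lists were chosen with earlier results of these data known. Members named are, per role, the 2 with the highest WT level per kb and those with the largest and smallest log2 fold change in Casp8-/- Tnfr1-/- over WT, and members called in any comparison with all livers in the fit. Other members, and the 4 printed promoters, were chosen after their values or matches were seen. From the other lists, called genes and Cdkn1a are named, and others after their values were seen.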

Additional observations from a re-analysis of the deposited data

How the results depend on the processing

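No result of the members reversed for the median: all 5 medians stayed negative under all alternatives run, over DESeq2 size factors, upper-quartile factors, hemoglobin genes left out, no filter, a mean count of at least 10, DESeq2, limma-voom, fits of only 2 genotypes and each liver left out. The number of members called did not hold. In Casp8-/- Tnfr1-/- against WT it went from 0 to 5 with DESeq2's Wald test, and from 0 to 4 over fits that left out 1 liver, whose medians ran from -0.82 to -0.34. Those medians ran from -0.67 to -0.19 against Tnfr1-/-, from -0.54 to -0.05 against Casp8-/- Mlkl-/-, from -0.43 to -0.11 for Casp8-/- Mlkl-/- against WT and from -0.20 to -0.15 for Tnfr1-/- against WT, where the lone remaining Tnfr1-/- liver was assumed to vary like the other groups. The numbers called over the same fits were 0 to 0 in these 4 comparisons. Tnfr1-/- against WT went from 0 to 3 called with only the 2 genotypes in the fit. Alternatives chosen after seeing the data moved the counts. They are given in the order Casp8-/- Tnfr1-/- against WT, Tnfr1-/- and Casp8-/- Mlkl-/-, then Casp8-/- Mlkl-/- and Tnfr1-/- against WT. Without both livers whose TMM factor was under 0.9, 32, 14, 20, 4 and 1 members were called lower. The shares of all genes called lower in that fit were 13.5%, 9.3%, 6.1%, 3.18% and 0.33%. With limma-voom quality weights 27, 13, 3 and 3 members were called in the first 4 and 0 in the last, all of them lower. The shares of all genes called lower with these weights were 13.6%, 10.5%, 4.73%, 2.85% and 0.702%. Mki67 in Casp8-/- Tnfr1-/- against WT turned from 0.05 to -0.18 without Casp8-/- Tnfr1-/- replicate 3 (-0.18 to 0.23 over fits that left out 1 liver), -0.17 without both livers and -0.17 with quality weights. Bub1 and Kif11 also reversed in this comparison, and with Mki67 they made 5 of 880 member values over all alternatives. In the other 4 comparisons, in the order above, 15, 34, 22 and 17 of 880 values reversed. Replicate numbers were shared by genotypes. Correlations of same-numbered livers were -0.30 to 0.27, 5 of 15 over 0.1, and those of differently numbered livers -0.28 to 0.31, 5 of 30 over 0.1. They rest on deviations from means of only 2 or 3 livers, so they cannot decide whether the numbers pair the livers. With a replicate block 0 members were called in each comparison and the medians were -0.66, -0.45, -0.40, -0.30 and -0.26 in the same order. The last moved from -0.16 by more than the member medians of single livers differed within the Tnfr1-/- or the WT livers. Within the other genotypes these medians differed by more than that. The causes were not tested. Counts were high for all members, and each genotype had only 2 or 3 livers. The parts of depth and of the spread between livers in the number of calls were not tested.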

Other observations

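Regulators upstream of the members gave mixed values. Of 21 genes that control entry into S phase, 0 were called in Casp8-/- Tnfr1-/- against WT livers by edgeR (3 at an unadjusted p under 0.05, against 24.6% of all genes) and the median log2 fold change was -0.37. Cyclin E1 (Ccne1), which starts S phase with CDK2, was at 161, 173 and 170.4 CPM in the WT livers, 143 and 142 CPM in the livers labelled Tnfr1-/-, 65.9, 156 and 141 CPM in those labelled Casp8-/- Mlkl-/- and 115, 114 and 21.9 CPM in those labelled Casp8-/- Tnfr1-/-. Cyclin D2 (Ccnd2), which acts earlier in G1, was at 70.5, 78.6 and 68.6 CPM in the WT livers, 67.5 and 70 CPM in the livers labelled Tnfr1-/-, 60.7, 93.3 and 101 CPM in those labelled Casp8-/- Mlkl-/- and 113, 107 and 58.6 CPM in those labelled Casp8-/- Tnfr1-/-. With both livers of low TMM factor left out, 10 of the 21 were called lower than in WT, among them Ccne1, Ccnd3, Mybl2 and E2f1, where 13.5% of all genes were, and 3 higher, Ccnd1, Ccnd2 and Cdk6, where 17.8% were.

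Of 14 cell cycle inhibitors tested, 0 were called against WT by edgeR (5 at an unadjusted p under 0.05, against 24.6% of all genes) and the median log2 fold change was 0.05. Cdkn1a, the p53 target p21 that blocks cyclin-dependent kinases, was at 8.18, 7.46 and 8.13 CPM in the WT livers, 6.92 and 7.18 CPM in the livers labelled Tnfr1-/-, 31.5, 6.48 and 8.87 CPM in those labelled Casp8-/- Mlkl-/- and 14.9, 16.6 and 229.9 CPM in those labelled Casp8-/- Tnfr1-/-. It was highest in Casp8-/- Tnfr1-/- replicate 3 and next in Casp8-/- Mlkl-/- replicate 1, the pair of livers with the lowest members, and its log2 fold change over WT was 3.46 (edgeR adjusted p 0.0854), a value carried by replicate 3. With those livers left out it was called higher than in WT at a log2 fold change of 1.0 (edgeR adjusted p 6.91e-05), where 17.8% of all genes were called higher. In that fit 7 of the 14 inhibitors were called lower, where 13.5% of all genes were. The most negative was Cdkn2c, an inhibitor of CDK4 and CDK6, at -0.70. Any link between Cdkn1a and the members was not tested.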
